A study of Homo sapiens with 63 samples.

Results

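Veliparib (ABT888 in the sample labels) at 50 µmol/L given without any other agent was compared with vehicle in 9 established small cell lung cancer (SCLC) cell lines. The members are the 9 arrays titled A50 and the 9 titled Con, chosen by title and paired by cell line, which is 18 of the 63 arrays of the series. The lines were H69, H128, H146, H187, H209, H526, D53, D114 and D153, where D53, D114 and D153 are the labels' names for the DMS lines. Each array holds the total RNA of 1 culture of 1 line under 1 condition on an Illumina HT-12 v4 expression BeadChip, so the cell line is the replicate and the spread is that between lines. The A50 cells received veliparib at 50 µmol/L and the Con cells the vehicle, and neither received cisplatin or radiation. The series also holds veliparib at 5 µmol/L (A5), cisplatin at the IC50 of each line alone (C+0) or with veliparib at 50 µmol/L (C+50), and conditions not used here. The study's methods give a day of exposure for these arrays, whereas the label protocol gives 48 to 72 hours in the wording of a cell viability assay. H128 is limited as a model, since its short tandem repeat profile did not match its reference in the study.

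Veliparib blocks PARP1 and PARP2, nuclear enzymes that attach chains of ADP-ribose to proteins at DNA breaks and so recruit repair factors, and the chains are removed by the glycohydrolase PARG. Cells that lack homologous recombination are known to be the most sensitive to this block. SCLC is a fast growing neuroendocrine cancer that has usually lost RB1, and it is treated with platinum drugs, with which PARP inhibitors have been combined. The mitotic and splicing genes are left out of the account below except where stated, and the genes described belong to transcription, protein folding, DNA repair, replication, ribosome assembly and nuclear transport.

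The labelled cell type was checked in the Con arrays. Of 15 neuroendocrine marker genes on the array, 11 to 15 were detected per Con array and 10 to 15 per A50 array, and no marker of this list passed the test below. D114 stood apart, with INSM1 at 6.71 and NCAM1 at 6.89 on the log2 scale, near the floor of the scale, and with VIM at 13.96, YAP1 at 8.75 and the fibroblast gene DCN at 11.24. UCHL1 (9.8), DLL3 (9.2), CHGB (8.5) and CHGA (7.8) were above that floor in D114, each at its lowest of the 9 lines. SCG2 (6.56) and DDC (6.37) were near it, as was the non-neuroendocrine marker CAV1 (6.67). The fibroblast list was mixed in D114. COL3A1 (11.3) and LUM (10.12) were high there like DCN. COL1A1 (6.69), COL1A2 (6.57), FAP (6.6), PDGFRA (6.57), POSTN (6.63) and FBN1 (6.45) were near the floor. H526 carried the tuft cell factor POU2F3 at 9.69, with the tuft markers ASCL2 at 11.53 and AVIL at 11.16. ASCL2 was also at 9.86 in D53 and 9.17 in D153, and the tuft marker CHAT was detected on none of the 18 arrays. Of 17 leucocyte markers, 3 to 7 were detected per Con array and 4 to 6 per A50 array. CD68 and CD14 were detected on 9 of 9 Con arrays and CD79A on 8. On none of the 18 arrays were 6 of the 17 detected, among them PTPRC, CD3E and CD4. No leucocyte or fibroblast marker was called.

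The deposited values are bead intensities quantile normalized by the authors, given here as log2 of the normalized intensity. Background was not subtracted, the lowest intensity before normalization was 68.41, and a change of a dim gene is therefore compressed. Probes detected (detection p under 0.05) by 4 or more of the 18 arrays were kept, which left 25363 of 47217 probes and 13622 named genes. Per array, 19569 to 21292 probes were detected in Con and 19124 to 22075 in A50, a mean difference of -337.3 probes (SD 821.1, n = 9 lines) that did not pass the exact two-sided sign-flip permutation test (p = 0.2578, smallest possible p = 0.003906). At a detection p under 0.01, A50 had fewer detected probes in 8 of 9 lines (mean difference -539.7, exact permutation p = 0.01953). The mean intensity before normalization was lower in A50 in 7 of 9 lines (mean difference -25.94, SD 43.98, exact permutation p = 0.1211). In bulk RNA, less RNA per cell and fewer cells of a type cannot be told apart.

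At 50 µmol/L veliparib changed many genes by small amounts. In limma's paired fit with Benjamini-Hochberg adjustment over all kept probes, 1343 probes were higher and 1540 lower in A50 (adjusted p under 0.05), which is 5.3% and 6.07% of the kept probes and 11.4% in either direction. Only 3 of the higher and 6 of the lower probes moved by at least 1.5-fold, and the median size of a called change was 0.167 on the log2 scale (median standard error of a change 0.036). Of the called probes, 624 were higher in 9 of 9 lines and 737 lower in 9 of 9 lines. When each gene was represented by its brightest probe, 6.23% of 13622 genes were called higher and 7.59% lower. These shares differed with brightness. Over 5 bins of mean signal, 0.147% were higher and 0.734% lower in the dimmest. In the second brightest bin they were 12.2% and 13%, and in the brightest 8.92% and 12.4%. The lists below were not matched to all genes for brightness, and its part in their shares was not tested.

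The split between rises and falls depended on the scaling of the arrays. When intensities before normalization were scaled to the median of all probes, 53 probes were higher and 1511 lower, and the median change was -0.11 among the brightest 2725 genes and -0.01 among the dimmest 2725. When they were scaled to the median of the probes detected on all 18 arrays, an alternative chosen after the data were seen, 1260 were higher and 894 lower. A rise below is therefore a rise relative to genes of similar brightness, and the part of lower overall signal in it was not tested. With 1 probe per gene, 28 of the 13622 genes were higher and 997 lower under median scaling. Under scaling to the detected probes 712 were higher and 632 lower. Because so few genes were higher under median scaling, a list with none higher there is not set apart from other genes.

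**Figure D1:**
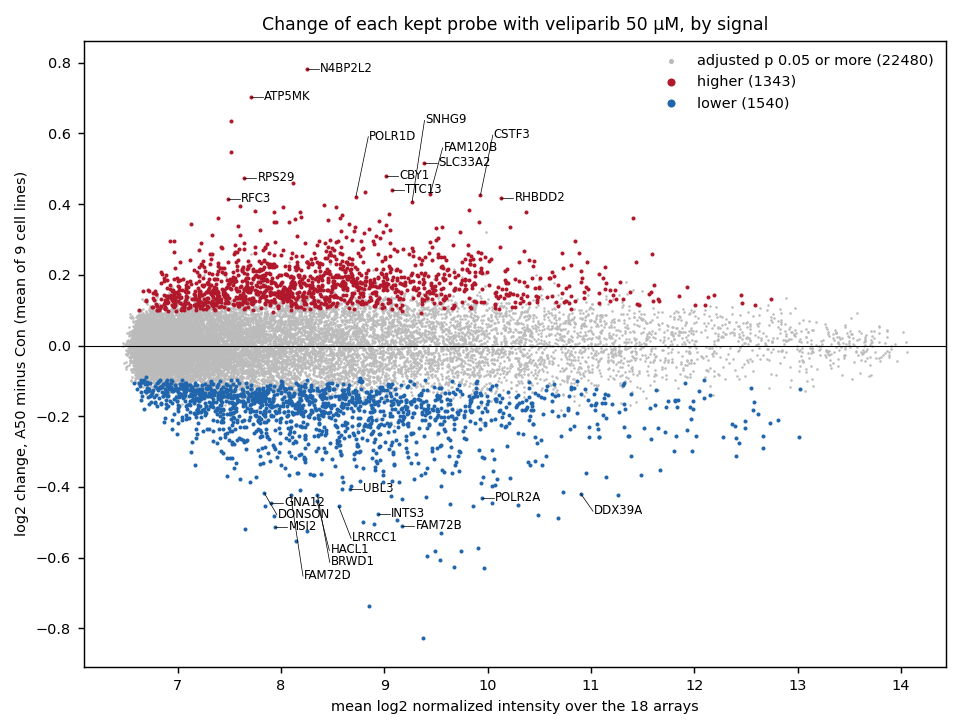
Each point is 1 of the 25363 kept probes, with its mean log2 normalized intensity over the 18 arrays on the x axis and its mean log2 change (A50 minus Con, 9 cell lines) on the y axis. Red and blue points are the 1343 higher and 1540 lower probes, the labelled points are the 12 largest rises and 12 largest falls outside the mitosis and splicing lists, and few called probes lie in the dimmest range.

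The 12 largest rises that went the same way in every line lay between 0.41 and 0.78 on the log2 scale, and the 12 largest falls between -0.51 and -0.41. N4BP2L2 ranged from 7.15 to 9.06 in Con (median 7.50) and from 7.73 to 9.62 in A50 (median 8.39). ATP5MK, a small subunit of the mitochondrial ATP synthase, ranged from 6.57 to 8.22 in Con (median 7.33) and from 6.74 to 9.47 in A50 (median 8.18). The groups overlapped for both genes, because the lines differed from each other by more than the drug moved them, but every line rose. N4BP2L2 rose by 0.78 (SE 0.06, 1.72-fold, limma adjusted p = 1.19e-06) and ATP5MK by 0.70 (SE 0.08, 1.63-fold, adjusted p = 5.41e-05). For ATP5MK the rise was smallest in H69 (0.18) and largest in D114 (1.34).

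The other large rises had mixed roles. SLC33A2 rose by 0.52, CBY1 (an inhibitor of beta-catenin) by 0.48, TTC13 by 0.44, FAM120B by 0.43 and RHBDD2, a rhomboid family protein, by 0.42. FAM120B was the steadiest of them, with 0.34 in the line that moved least (D153) and 0.55 in the line that moved most (H187). SNHG9, a host gene of small nucleolar RNAs, rose by 0.41 (SE 0.05, adjusted p = 6.81e-05). Under median scaling SNHG9 and CSTF3 no longer passed the test, and the other rises among the 12 still did.

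A second probe moved the same way for TTC13 (0.35) and RHBDD2 (0.38). For several of the other genes the large change belonged to 1 probe and not to the gene as a whole. CBY1 had a second, dim probe (Con median 6.77) that changed by -0.05 and did not pass the test (limma adjusted p = 0.388). The probe of RPS29 that rose by 0.47 had a median of 7.38 in Con, whereas the 3 other probes of this ribosomal protein gene had Con medians of 13.05 to 13.91, moved by at most 0.07 and did not pass the test. CSTF3, a subunit of the cleavage stimulation factor that trims messenger RNA, had 1 probe up by 0.43 and 3 others that changed by -0.06, -0.02 and 0.10, none past the test. RFC3, a subunit of the clamp loader of DNA replication, had 1 probe up by 0.41 and 2 brighter probes down by 0.13 and 0.32 (adjusted p = 0.0256, lost in 4 of the 9 fits with 1 line left out, and 0.000557). POLR1D, a subunit shared by RNA polymerases I and III, had 1 probe up by 0.42 and another down by 0.16 (adjusted p = 0.00825). N4BP2L2 had 2 probes up (0.78 and 0.55), 1 down by 0.23 (adjusted p = 0.00244) and 1 that did not pass the test.

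The falls showed the same mixture. MSI2, an RNA-binding protein of the Musashi family, ranged from 7.01 to 8.78 in Con (median 8.35) and from 6.65 to 8.33 in A50 (median 7.75). It fell in every line, by 0.51 on average (SE 0.05, adjusted p = 2.23e-05), while a second probe fell by 0.15 (adjusted p = 0.00341) and another changed by 0.05 (adjusted p = 0.372). GNA12, the alpha subunit of a heterotrimeric G protein, had 1 probe down by 0.45 and 2 others at 0.01 and -0.03, neither past the test. BRWD1, a bromodomain protein, had 1 probe down by 0.42 and 3 others at 0.18, 0.04 and -0.16, the first and the last past the test (adjusted p = 0.0117 and 0.0486). Other falls came from genes with 1 kept probe, namely INTS3, LRRCC1 (a centrosomal protein, -0.46), HACL1 (a peroxisomal enzyme of fatty acid breakdown, -0.44), POLR2A, DDX39A (an RNA helicase of messenger RNA export, -0.42) and UBL3 (-0.41). DONSON, which helps assemble the replication machinery, fell by 0.42 on 1 probe and by 0.14 on another (adjusted p = 0.0159).

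FAM72B and FAM72D fell by 0.51 and 0.42, and FAM72A, named here after its value was seen, fell by 0.33 (adjusted p = 0.000484). These genes are near-identical copies, so signal may be shared between their probes and they do not count as separate results. On these probes D153 fell most (from -1.03 to -0.67) and D114 least, whereas a second FAM72B probe, at -0.29 (adjusted p = 0.000503), fell most in H128.

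**Figure D2:**
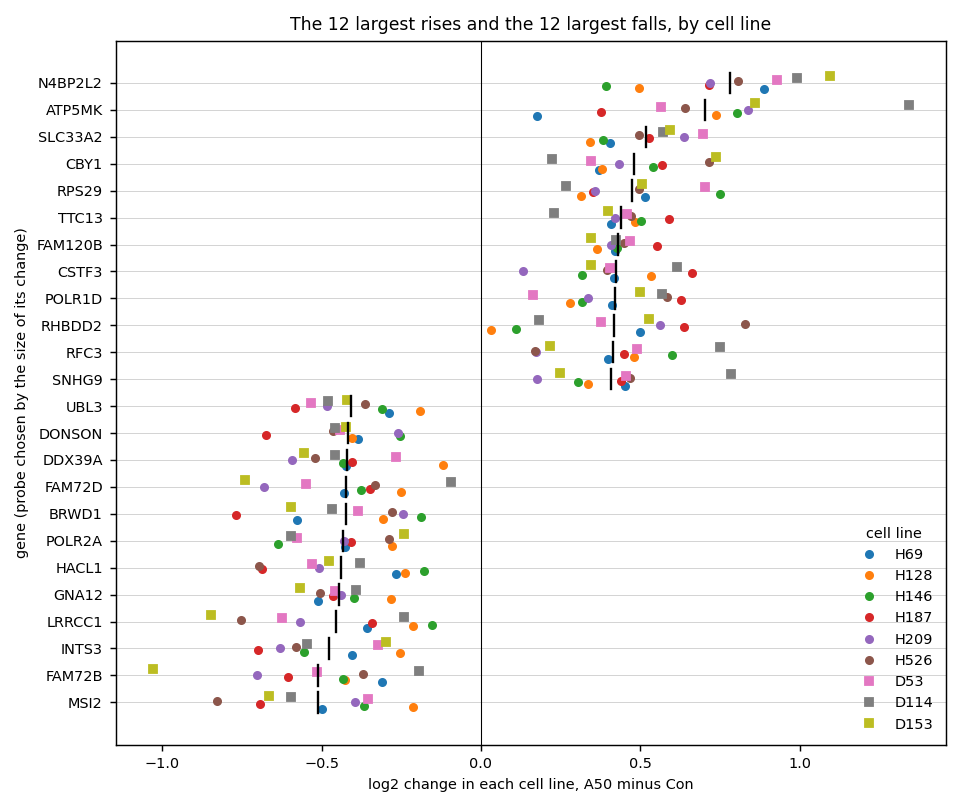
Log2 change (A50 minus Con) in each of the 9 cell lines for the probes with the 12 largest rises and 12 largest falls, circles for H lines and squares for D lines, with the mean as a black bar. Every line lies on the same side of 0 for each of these probes, as the rule of choice required, and the spread between lines is widest for ATP5MK and FAM72B.

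These 24 probes were then looked up in arrays that share no sample with A50 or Con, the C+50 arrays against the C+0 arrays of the same lines. There 13% of 25370 kept probes were called, 6.31% higher and 6.69% lower. With 1 probe per gene, 7.61% were higher and 8.51% lower, the shares to set beside the list counts from these arrays below. All 12 rises were called higher, between 0.26 and 0.75, and 11 of the 12 falls were called lower, from -0.50 for INTS3 to -0.22 for LRRCC1. The exception was FAM72D (-0.11, adjusted p = 0.0714). Whether veliparib at 50 µmol/L acted differently with and without cisplatin was tested as the difference of the 2 changes over 36 arrays. Of the 158 probes named by rule, none passed this test by limma, and of all kept probes 4 did, 0.0139% and all of them more positive with cisplatin (1894 at an unadjusted p under 0.05).

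The same probes were also compared between doses. A5 against Con called 11 probes in all by limma, 0.0433% of those kept (0.00394% higher and 0.0394% lower, 1959 at an unadjusted p under 0.05). The changes of the 12 rises lay between 0.01 and 0.16 and those of the 12 falls between -0.23 and 0.01. Of the 12 rises 1 was called higher at 5 µmol/L, and of the 12 falls 1 was called lower. A50 against A5 called 9.19% of kept probes (4.28% higher and 4.91% lower), among them all 12 rises (0.32 to 0.71) and all 12 falls (-0.43 to -0.19) in the same direction. A5 against Con shares the Con arrays with the main comparison and A50 against A5 shares the A50 arrays, so these values stand side by side and are no separate evidence. SLC33A2 and CBY1 differed by 0.14 and 0.16 at 5 µmol/L, whereas ATP5MK and RPS29 differed by 0.03 and 0.01.

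The transcription machinery held some of the clearest changes. RNA polymerase II makes messenger RNA, and P-TEFb, the kinase CDK9 with cyclin T1 or T2, releases it from pausing near the start of genes. Most P-TEFb is held inactive by the 7SK RNA with the HEXIM proteins, LARP7 and the capping enzyme MEPCE. Integrator is a complex that cuts nascent RNA and ends transcription early.

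POLR2A, the largest subunit of RNA polymerase II, ranged from 9.57 to 10.99 in Con (median 10.05) and from 9.19 to 10.40 in A50 (median 9.69). It fell in every line, from -0.24 in D153 to -0.64 in H146, with a mean of -0.43 (SE 0.04, adjusted p = 1.67e-05). CDK9 went the other way, from a range of 7.35 to 8.77 (median 7.93) in Con to one of 7.56 to 9.06 (median 8.32) in A50. The lowest and the highest CDK9 value both rose with the drug, and every line rose, from 0.15 in H187 to 0.47 in H209. CDK9 rose by 0.36 (SE 0.03, adjusted p = 1.48e-05) and CCNT1, the cyclin T1 gene, by 0.31 (SE 0.04, adjusted p = 7.48e-05, 9 of 9 lines). CCNT2, cyclin T2, rose by 0.16 (adjusted p = 0.0214), a call lost without H187 or H209. CDK9 still passed the test under median scaling (0.25), while CCNT1 (0.18) and CCNT2 (0.06) did not.

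MEPCE fell by 0.32 (SE 0.07, adjusted p = 0.00473), in 8 of 9 lines. H187 fell by 0.97, far more than the other 8 lines, which lay between -0.33 and 0.03, and without 1 line at a time the mean stayed between -0.36 and -0.24. The partners of MEPCE did not pass the test, with HEXIM1 at -0.03, HEXIM2 at -0.01 and LARP7 at -0.10 (adjusted p = 0.55, 0.884 and 0.165). In the C+50 against C+0 arrays, where 7.61% of genes were higher and 8.51% lower, POLR2A was at -0.41, CDK9 at 0.33, CCNT1 at 0.27 and MEPCE at -0.29, and all 4 passed the test. The list of RNA polymerase II and elongation genes as a whole had 8 of 62 measured members higher and 7 lower, against 6.23% and 7.59% of all genes, with a median of -0.02. Its shares were 12.9% higher and 11.3% lower. Those of the 2 brightest bins of genes were 12.2% and 8.92% higher and 13% and 12.4% lower. Under median scaling 1 member of the list was higher and 5 lower, and without H146 9 were higher and 4 lower. Among the others, GTF2H4 of the factor TFIIH rose by 0.24 and GTF2E2 of TFIIE fell by 0.19.

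Integrator was looked at after INTS3 had been named by its size. INTS3 ranged from 8.72 to 10.20 in Con (median 8.96) and from 8.29 to 9.65 in A50 (median 8.40), and it fell by 0.48 (SE 0.05, adjusted p = 1.26e-05, 9 of 9 lines). INTS6 fell by 0.41, INTS8 by 0.26 and INTS10 by 0.18, while INTS11, the RNA-cutting subunit, rose by 0.19 and INTS1 by 0.12 (adjusted p from 0.000108 to 0.0477). The other 8 of the 14 measured subunits did not pass the test, and the median of the 14 was -0.05. The rises of INTS11 and INTS1 shrank to 0.10 and 0.00 under median scaling, and INTS1 lost the call in 8 of the 9 fits with 1 line left out.

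**Figure D3:**
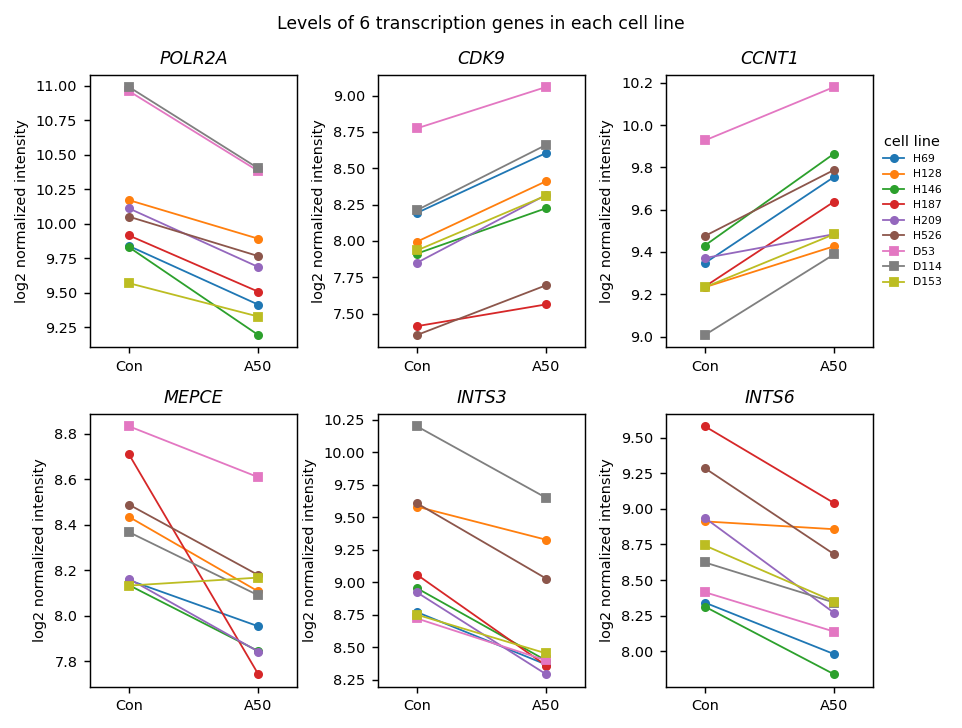
Log2 normalized intensity of 6 transcription genes in Con and A50, with 1 line joining the 2 arrays of each of the 9 cell lines. POLR2A, INTS3 and INTS6 fell and CDK9 and CCNT1 rose in every line, MEPCE fell in 8 of 9 with the steepest fall in H187, and the y axes differ between panels and do not start at 0.

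Of 54 measured genes of 3' processing, export and decay, 8 were higher (0 under median scaling) and 2 lower, against 6.23% and 7.59% of all genes, with a median of 0.02. The higher ones included CPSF4 (0.24) and CLP1 (0.15) of the cleavage machinery, EXOSC8 (0.21), EXOSC4 (0.18) and DIS3 (0.19) of the RNA exosome, and XRN2 (0.20), the exonuclease that ends transcription. DDX39A and THOC6 of the export machinery were the lower ones. XRN2 (0.04) and EXOSC8 (-0.09) did not pass the test in C+50 against C+0.

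Of the heat shock chaperone genes, 10 of 25 measured fell and none was higher, against 7.59% of all genes lower. The median over the 25 was -0.09. These genes help proteins fold and are switched on by the heat shock factor HSF1, which binds repeats of nGAAn in their promoters. HSPA1A, the inducible HSP70, ranged from 8.50 to 10.54 in Con (median 9.40) and from 8.29 to 10.01 in A50 (median 9.06). It fell in every line, from -0.06 in H526 to -0.69 in D53, with a mean of -0.39 (SE 0.06, adjusted p = 0.000473). Its near-identical neighbour HSPA1B fell by 0.19, and signal may be shared between the 2. The small chaperone HSPB1 fell by 0.23 (SE 0.04, adjusted p = 0.000915), the HSP90 partner CHORDC1 by 0.25 (SE 0.06, adjusted p = 0.0106) and the constitutive HSP70 HSPA8 by 0.16 (SE 0.04, adjusted p = 0.0121). HSPH1, HSPA4L, DNAJA1, HSPA4 and FKBP4 fell by 0.13 to 0.18. FKBP4 lost the call in 6 of the 9 fits with 1 line left out, and DNAJA1 and HSPA1B in 5.

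The upstream sequences of 4 of these genes are shown to set the motif beside the change. They are the 250 bases before the annotated start (RefSeq, GRCh38.p14), written 5′ to 3′ on the strand of the gene, with GAANNTTC and TTCNNGAA in capitals. Both motifs read the same on the other strand, and they can overlap each other.
HSPA1A: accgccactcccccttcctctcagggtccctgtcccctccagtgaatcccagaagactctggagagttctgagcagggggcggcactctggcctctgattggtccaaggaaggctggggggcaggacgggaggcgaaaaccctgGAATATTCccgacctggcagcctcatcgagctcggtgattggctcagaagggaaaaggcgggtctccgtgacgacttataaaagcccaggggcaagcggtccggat
HSPB1: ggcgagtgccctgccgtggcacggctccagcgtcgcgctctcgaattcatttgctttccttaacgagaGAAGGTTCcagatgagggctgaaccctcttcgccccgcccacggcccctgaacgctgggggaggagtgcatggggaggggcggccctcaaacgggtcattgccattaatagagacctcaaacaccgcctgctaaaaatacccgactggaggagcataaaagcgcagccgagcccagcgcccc
CHORDC1: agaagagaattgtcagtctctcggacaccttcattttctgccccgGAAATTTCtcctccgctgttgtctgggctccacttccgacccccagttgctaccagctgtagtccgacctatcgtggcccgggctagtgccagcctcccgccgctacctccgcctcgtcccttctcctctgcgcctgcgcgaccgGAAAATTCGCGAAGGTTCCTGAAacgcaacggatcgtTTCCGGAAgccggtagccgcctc
HSPA8: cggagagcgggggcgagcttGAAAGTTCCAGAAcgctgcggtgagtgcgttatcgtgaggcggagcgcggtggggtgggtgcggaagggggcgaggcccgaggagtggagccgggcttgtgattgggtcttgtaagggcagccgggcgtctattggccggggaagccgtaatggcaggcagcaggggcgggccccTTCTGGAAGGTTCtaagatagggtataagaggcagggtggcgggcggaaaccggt
The windows are chr6:31815293-31815542 (plus strand), chr7:76302423-76302672 (plus strand), chr11:90223050-90223299 (minus strand) and chr11:123062137-123062386 (minus strand). HSPA1A and HSPB1 held 1 match each, CHORDC1 held 6 and HSPA8 held 4. In CHORDC1 and HSPA8 the matches overlapped into longer runs, and yet HSPA1A with 1 match fell most of the 4. At least 1 match was found in 7 of the 9 called members that have a promoter in the table, in 7 of the 13 others, and in 11.6% of 35116 promoter windows of this length. A member with several windows counted if any of them held a match, whereas the 11.6% counts single windows, so the measures are unlike. A match is a description of the letters and not a bound site.

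HSP90AA1 (-0.06), HSP90AB1 (0.01), the mitochondrial HSPD1 (-0.04) and HSPA9 (0.01), STIP1 (0.02) and HSF1 itself (0.03) did not pass the test. Under median scaling 7 of the 25 were lower, under scaling to the detected probes 6, and with any 1 line left out 7 to 11. With cisplatin present (C+50 against C+0) 7 of the 25 were lower and none higher, against 8.51% of all genes lower. HSPA1A was at -0.09 there (adjusted p = 0.283), and the difference between its changes with and without cisplatin was 0.29 (adjusted p = 0.344).

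**Figure D4:**
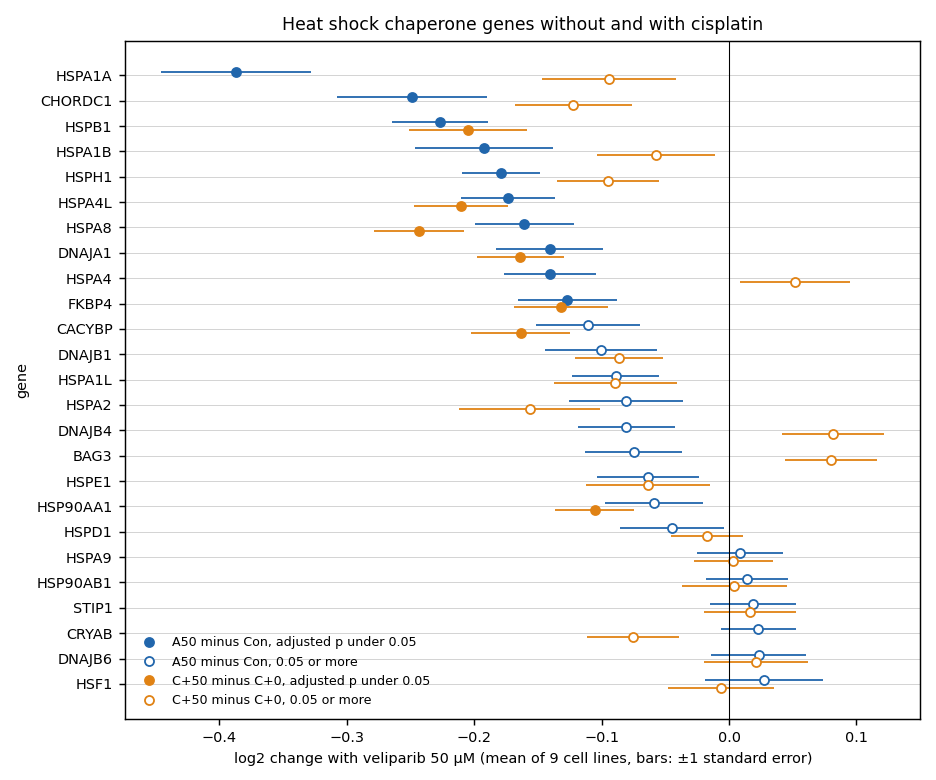
Mean log2 change with veliparib at 50 µmol/L of the 25 measured heat shock chaperone genes over 9 cell lines, in blue without cisplatin (A50 minus Con) and in orange with it (C+50 minus C+0), with bars of 1 standard error. Filled points have an adjusted p under 0.05, which are 10 genes without and 7 with cisplatin, and HSPA1A has the largest fall without cisplatin at -0.39.

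Some genes of the integrated stress response fell as well. This pathway slows protein synthesis through eIF2 and turns on ATF4 and its targets. ATF5 ranged from 8.59 to 10.43 in Con (median 9.28) and from 8.25 to 10.32 in A50 (median 8.75), and DDIT3 (CHOP) from 7.51 to 8.96 (median 8.28) and from 7.36 to 8.49 (median 7.99). ATF5 fell by 0.33 (SE 0.05, adjusted p = 0.000557) and DDIT3 by 0.31 (SE 0.04, adjusted p = 0.000229), both in 9 of 9 lines and most in D114. PPP1R15A, which restores translation, fell by 0.20, ATF4 by 0.16 and DDIT4, an inhibitor of mTOR, by 0.15. Of 30 measured genes of this list 5 were lower and 1, the serine enzyme SHMT2 (0.17), higher, against 7.59% and 6.23% of all genes. Under median scaling 7 were lower and none higher. ASNS, an amino acid target of ATF4, was at 0.03 and did not pass the test (adjusted p = 0.655). Of 23 genes of the unfolded protein response and the ER chaperones 2 were lower and 1 higher, near those shares of all genes. ATF6 (-0.17) and HSPA5 (-0.11) were the lower ones and CANX (0.13) the higher one. HSPA5 lost the call in 6 of the 9 fits with 1 line left out and CANX in 4.

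Of the metallothioneins, small proteins that bind zinc and copper, MT1X and MT1E passed the test. MT1X ranged from 8.52 to 11.95 in Con (median 9.72) and from 8.35 to 11.89 in A50 (median 9.62). It fell by 0.32 on average (SE 0.07, adjusted p = 0.00662), from -0.06 in D114 to -0.93 in D153, and MT1E fell by 0.30 (SE 0.07, adjusted p = 0.00952), with -0.92 in D153. These genes are close relatives, and their probes may share signal. MT2A (-0.16, adjusted p = 0.102), MT1G (-0.23, adjusted p = 0.144), MT1M (-0.13), MT1H (-0.10) and MT1F (-0.09) did not pass the test. Without 1 line at a time the mean of MT1X stayed between -0.35 and -0.24. The list, with the zinc transporters, had 3 lower and 1 higher of 18 measured, against 7.59% and 6.23% of all genes, the third lower one being the transporter SLC30A5 (-0.14, a call lost in 7 of the 9 fits with 1 line left out), and with cisplatin 6 lower and 1 higher. The factor MTF1 binds metal response elements with the cores TGCACNC and TGCGCNC, shown in capitals on either strand in the 250 bases before the start of MT1X (RefSeq, GRCh38.p14, plus strand, chr16:56682220-56682469).
MT1X: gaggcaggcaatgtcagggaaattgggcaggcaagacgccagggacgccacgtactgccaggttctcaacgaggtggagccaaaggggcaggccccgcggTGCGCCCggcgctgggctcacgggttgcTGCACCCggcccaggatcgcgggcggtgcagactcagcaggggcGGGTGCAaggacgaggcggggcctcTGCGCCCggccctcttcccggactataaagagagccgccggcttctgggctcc
The window held 4 such cores, and at least 1 was found in 1 of the 3 called members with a promoter in the table, in 7 of the 9 others and in 24.8% of all promoter windows of this length. Here too a member with several windows counted if any of them held a core, whereas the 24.8% counts single windows.

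Among genes of the immediate early response, which follows growth signals within minutes, 4 of 32 were lower and none higher, against 7.59% and 6.23% of all genes. They were SPRED1 (-0.20), ZFP36 (-0.19), FOS (-0.18) and KLF6 (-0.15). Under median scaling 4 were lower, and under scaling to the detected probes 1. FOS lay near the floor of the scale in Con, from 6.47 in H128 to 6.90 in H187, except in D153 (7.42). Of 38 interferon-stimulated genes 4 were lower and none higher (HERC5 -0.19, ISG20 -0.18, IFIT1 -0.12 and IFI35 -0.11), against 7.59% of all genes lower, and under median scaling 1 was lower and under scaling to the detected probes none. IFI35 lost the call in 8 of the 9 fits with 1 line left out, IFIT1 without D114 or D153 and ISG20 without H209 or D153.

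The RNA of the targets of the drug did not pass the test. PARP1 ranged from 11.08 to 12.43 in Con (median 11.44) and from 11.03 to 12.32 in A50 (median 11.36), a change of -0.05 (95% interval from -0.11 to 0.02, adjusted p = 0.447). PARP2 changed by 0.03 (95% interval from -0.06 to 0.11, adjusted p = 0.775) and the brightest probe of PARG did not pass the test (95% interval from -0.08 to 0.08, adjusted p = 0.999), while another PARG probe rose by 0.11 (adjusted p = 0.0196). In the wider family PARP6 rose by 0.24, with 0.56 in H187, MACROD1 (which removes ADP-ribose from proteins) rose by 0.18, and PARP3 and OARD1 fell by 0.13 each. So 2 of 22 measured genes were higher and 2 lower, near the 6.23% and 7.59% of all genes. Under median scaling only PARP3 was called, and under scaling to the detected probes none of the list was lower. PARP3 lost the call in 5 of the 9 fits with 1 line left out and OARD1 in 3 (without H128, H187 or H209). Of 16 genes of NAD metabolism, the substrate of PARP1, the deacylases SIRT5 (-0.27) and SIRT1 (-0.15) fell and the kinase NADK (0.19) rose.

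DNA repair genes moved in both directions. NBN, which with MRE11 and RAD50 senses double-strand breaks, ranged from 8.08 to 9.16 in Con (median 8.48) and from 7.66 to 8.88 in A50 (median 8.12). It fell in every line, from -0.19 in H146 to -0.56 in H69, by 0.36 on average (SE 0.04, adjusted p = 1.67e-05), and a dimmer probe fell by 0.11. FEN1, which trims flaps in replication and base excision repair, ranged from 10.74 to 11.69 in Con (median 11.22) and from 11.19 to 11.94 in A50 (median 11.52). It rose in every line, by 0.36 (SE 0.04, adjusted p = 2.87e-05) on 1 probe and 0.35 on another. UNG, which cuts uracil out of DNA, rose by 0.26, and the glycosylase NEIL3 and the polymerase POLB fell by 0.19 and 0.18. Base excision repair had 3 of 24 genes higher and 4 lower, against 6.23% and 7.59% of all genes. FEN1 (0.24) and UNG (0.14) did not pass the test under median scaling.

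Of 32 genes of homologous recombination and the Fanconi anaemia pathway 7 were higher and 2 lower, against 6.23% and 7.59% of all genes, with a median of 0.02. The higher ones included RAD54L (0.23) and RAD54B (0.18), which move along DNA during strand exchange, the nuclease EXO1 (0.18), the helicase BLM (0.17) and FANCE (0.21). RAD51C (-0.14) was the other gene that fell. The count of higher genes rested on few lines, with 3 without H187, 3 without D153 and 4 without H69. Under median scaling none was higher and 3 were lower, where 28 of all 13622 genes were higher and 997 lower. In C+50 against C+0, 9 were higher and 3 lower, against 7.61% and 8.51% of all genes. In DNA damage signalling RAD9A of the checkpoint clamp (0.28) and CDC25A (0.17) rose and CDC25B (-0.26) and MDC1 (-0.15) fell, 3 higher and 2 lower of 19. Of 26 p53 targets 2 were higher, PIDD1 (0.24) and XPC (0.18), and 5 lower, such as RPS27L (-0.17) and TP53I3 (-0.16). With 1 line left out, CDC25A lost the call in 7 of 9 fits, MDC1 and TP53I3 in 5, EXO1, BLM and RPS27L in 3, and PIDD1 without H187 or D153.

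Of 58 genes of the G1/S transition and DNA replication 10 were higher and 2 lower, against 6.23% and 7.59% of all genes, with a median of 0.04. In C+50 against C+0 6 were higher and 5 lower. RFC5, of the same clamp loader as RFC3, rose by 0.28 in 9 of 9 lines (SE 0.04, adjusted p = 0.000194), POLD2 of polymerase delta by 0.21, ORC1 of the origin recognition complex by 0.18, E2F3 by 0.18, CDK2 by 0.17 and CCNE1 (cyclin E1) by 0.14, a call lost in 6 of the 9 fits with 1 line left out. MCM5 of the replicative helicase rose by 0.26, with a fall in 2 lines. POLE2 fell by 0.18. None of the 10 passed the test under median scaling, and 6 genes were higher and 3 lower when arrays were scaled to the detected probes. For comparison, the mitosis list had 5 of 157 genes higher and 67 lower, with a median of -0.13. Of 27 histone genes H2BC5 (0.35, all 9 lines) and H2AC6 (0.22) rose. Histone messages of this kind mostly lack poly(A) tails, and the copies are closely related, so these 2 values are uncertain.

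Of 58 genes of ribosome biogenesis and RNA polymerase I, 11 were higher and 3 lower, against 6.23% and 7.59% of all genes, with a median of 0.03, and without H526 or without D53 the higher ones were 7. The processing factor IMP4 rose by 0.27 in 8 of 9 lines, RRS1 by 0.20, and BYSL, BOP1, TSR1 and UTP14A by 0.19 each, while UTP18 fell by 0.30 (SE 0.05, adjusted p = 0.000768, 9 of 9 lines). Under median scaling none was higher. Of 67 cytosolic ribosomal protein genes 3 were higher and 2 lower, led by RPL13A (0.24) and RPL28 (-0.26), and of 76 genes of the mitochondrial ribosome 8 were higher and 6 lower, led by MRPS14 (0.18) and MRPL39 (-0.32). Oxidative phosphorylation had 8 of 72 genes higher and none lower, ATP5MK far ahead and the next, NDUFV1 of complex I and UQCRC2 of complex III, at 0.19 and 0.16. UTP14A lost the call in 6 of the 9 fits with 1 line left out and UQCRC2 without H187. The count for oxidative phosphorylation was 1 under median scaling and 5 without H187, and 4 in C+50 against C+0.

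Of 43 genes of the nuclear pore and its transport receptors 9 were lower and 3 higher, against 7.59% and 6.23% of all genes, with a median of -0.03. Under median scaling 7 were lower and none higher, and in C+50 against C+0 5 were lower and 6 higher. KPNA2, an importin alpha that carries proteins into the nucleus, ranged from 9.92 to 10.94 in Con (median 10.41) and from 9.63 to 10.78 in A50 (median 9.85). It fell in every line, by 0.37 on average (SE 0.07, adjusted p = 0.00161) and most in D53 (-0.96). The importins IPO8 and IPO5 fell by 0.30 and 0.18 and the pore proteins NUP98 and NUP35 by 0.24 and 0.20, whereas NUP153 rose by 0.13.

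Of 72 chromatin regulators 12 were lower and none higher, against 7.59% of all genes lower, and the median was -0.01. They included the acetyltransferases KAT2B (-0.22), KAT2A (-0.17), CREBBP (-0.15) and EP300 (-0.14), RING1 (-0.22) and SUZ12 (-0.14) of the Polycomb complexes, TET1 (-0.17), DNMT3B (-0.15), SMARCB1 (-0.16) and HDAC1 (-0.11). HDAC1 lost the call in 6 of the 9 fits with 1 line left out, CREBBP and SUZ12 in 5, and TET1 without H187 or H526. Under median scaling 10 were lower, and when arrays were scaled to the detected probes 7 were lower and 2 higher. In C+50 against C+0, 9 were lower and 8 higher, and the difference between the counts was not tested.

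Of 40 cytoskeleton and adhesion genes 7 were lower and none higher, against 7.59% and 6.23% of all genes, with a median of -0.05. ACTN1, which crosslinks actin, fell by 0.26 and LASP1 by 0.23, the tubulin genes TUBB4B and TUBB2A by 0.23 and 0.19, and STMN1, which takes microtubules apart, by 0.20. In the neuroendocrine list of 36 genes, 30 of them measured, SNAP25 (-0.24) and CELF3 (-0.14) fell and ENO2 (0.16) rose. Against the same shares of all genes, other lists held few called genes, among them cholesterol synthesis (2 higher and 1 lower of 26), fatty acid metabolism (1 and 4 of 30), end joining (1 and 0 of 14), tRNA synthetases (1 and 1 of 18), snoRNA host genes (2 and 2 of 18), the proteasome (0 and 2 of 35), lysosome and autophagy (4 and 2 of 45), glycolysis and hypoxia (3 and 2 of 35), NRF2 and glutathione defence (2 and 3 of 32), nucleotide synthesis (1 and 1 of 28), apoptosis regulators (1 and 1 of 31), the Notch pathway (0 and 1 of 26), the Wnt pathway (2 and 1 of 31), the clock (1 and 2 of 16), growth factor signalling (2 and 4 of 32) and the MYC family (1 and 1 of 15). LAMP2 of the lysosome had 2 probes that fell (-0.23 and -0.19) and 3 that rose (0.30, 0.24 and 0.19). GSK3B fell by 0.21, APAF1 of the apoptosome by 0.23, the cyclin CCNG2 by 0.27 and FOXO4 by 0.23, while the clock repressor CRY2 rose by 0.21, the MYC antagonist MXD4 by 0.22 and the growth brake TSC1 by 0.21. ENO2 lost the call in 7 of the 9 fits with 1 line left out, CELF3 without H69, H187 or H209, and APAF1 without H146, H187, H526 or D114.

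**Figure D5:**
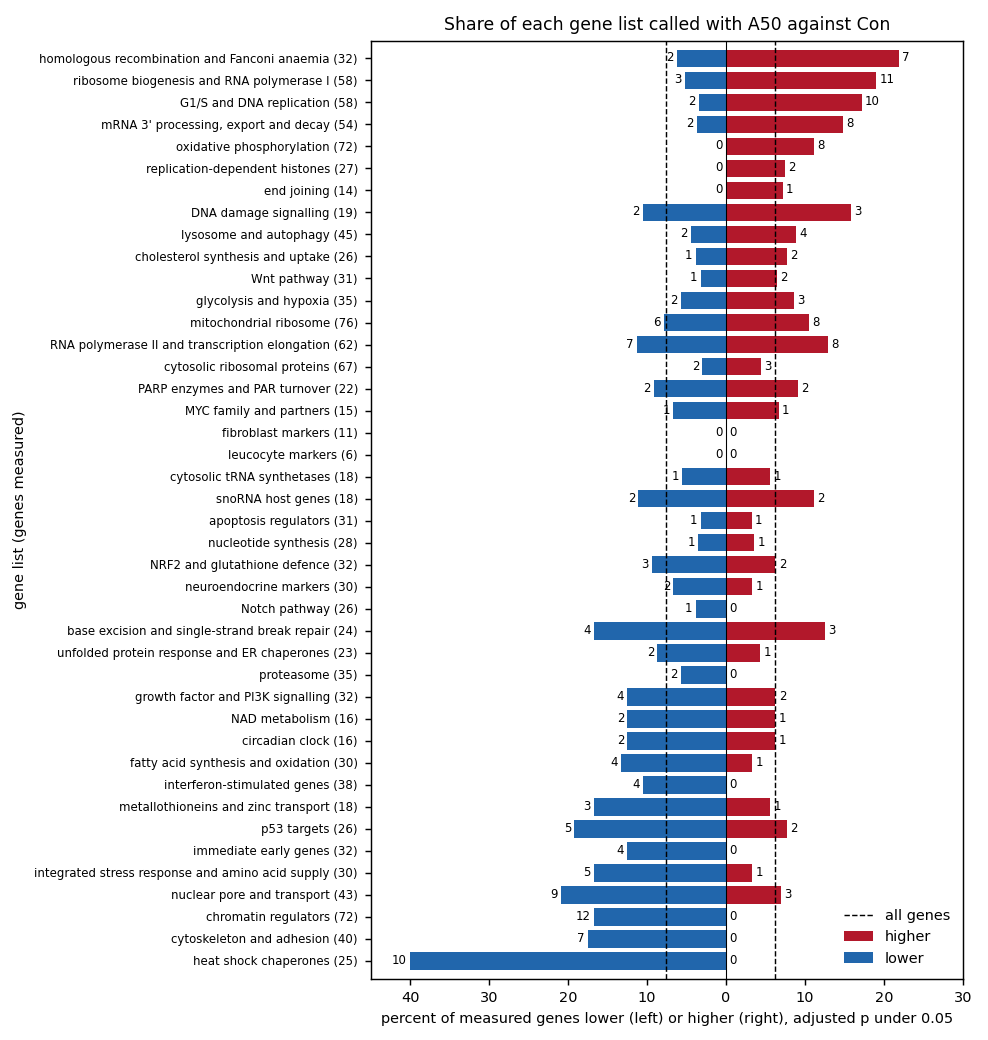
For each gene list, the percentage of measured genes called higher (red, right) or lower (blue, left) in A50 against Con, with the number of genes beside each bar and the genes measured in parentheses. Dashed lines give the share of all 13622 genes, 6.23% higher and 7.59% lower, to which the lists were not matched for brightness. The heat shock chaperones have the largest share lower of the lists drawn (10 of 25).

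The lines differed in how far they moved. Over the 25363 kept probes the SD of the change was lowest in H128 (0.122) and highest in D53 (0.182), and the probes that rose by at least 1.5-fold numbered 7 in H128 and 167 in D53. For each line, the probes called from the other 8 lines were looked up in the line left out. Between 79.7% (H128) and 89.9% (H187) of them moved in the same direction there, and the median change in that direction was 0.104 in H128, 0.108 in H146 and 0.139 in D114, against 0.183 in D153. In the 8 lines used for the calls the median size was 0.17 to 0.182. No probe differed between the 3 D lines and the 6 H lines in the interaction test of limma (0 of 25363, 1408 at an unadjusted p under 0.05). With all 63 arrays in the fit 4 probes did, and without D114 also 4.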

How the data were processed

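Illumina HT-12 v4 BeadChips were hybridised with total RNA of 9 SCLC cell lines, each in 7 conditions, and 18 of the 63 arrays carry the main comparison. The authors deposited a matrix of quantile-normalized bead intensities from GenomeStudio 2010.3 and a table of intensities before normalization with detection p-values, both without background subtraction. All columns were matched to samples by title. Intensities were taken to log2, and probes detected (detection p under 0.05) by 4 or more of the 18 arrays were kept. Of the 25363 kept probes, 18618 have 1 gene symbol in the platform annotation, 3 have several and 6742 have none. The precision is limited by the number of arrays, 1 per line and condition.

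A50 and Con were compared with limma 3.58.1 in R 4.3.3 blocked by cell line, and p-values were adjusted by Benjamini-Hochberg over all kept probes. The line pairs the arrays, as the labels give it: after removal of the group means the 2 arrays of a line correlated at 0.9536 to 0.9716, arrays of different lines at most at 0.1358, and 0 arrays were identical. The p-values of limma rest on the spread between lines, moderated by a variance pooled over all kept probes. An ordinary linear model, which uses the spread of each probe alone, called 1365 probes. The BeadChip of each array is not given in the sources used here, so no block for it was fitted. The fit was tested on simulated data.

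The genes named are the 12 largest rises and 12 largest falls past the test and alike in sign in 9 of 9 lines, outside the mitosis and splicing lists, the called genes of largest change in each gene list, and PARP1, PARP2 and PARG. Other genes are named to describe a list or a complex and were chosen after their values were seen. A gene in a list is represented by its probe of highest mean signal. The members, lists and tests were chosen with earlier results of these data known. Alternatives were other normalizations, filters and fits and leaving out each line, and after the data were seen scaling to the median of the probes detected on all 18 arrays, a detection p of 0.01 for the count of detected probes, and a fit over 36 arrays of veliparib with against without cisplatin. Some list members are not reported here. Figures were drawn with matplotlib 3.10.9.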

Additional observations from a re-analysis of the deposited data

Results flagged for a closer look

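Among the 158 probes named by rule, 11 had 1 line whose change lay far from the other 8, by Dixon's gap test. Chance flags about 1 in 20 groups. SNHG9 changed by 0.7834 in D114, against 0.1755 to 0.4664 elsewhere, and DONSON by -0.6749 in H187, against -0.4628 to -0.2553. PARP6 changed by 0.5566 in H187 (others 0.1068 to 0.3197) and PIDD1 by 0.8678 in D53 (others -0.02795 to 0.3693). MEPCE, the 7SK capping enzyme, changed by -0.9674 in H187 (others -0.3283 to 0.03453), and KAT2B by -0.5017 in D114 (others -0.2987 to -0.1027). SNHG6 changed by 0.3324 in H526 (others -0.002825 to 0.1559). In these genes the outlying line moved in the direction of the mean.

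In the other 4 genes the outlying line moved against the mean. RPL28 changed by 0.1849 in D53 while the other lines fell by 0.1448 or more, and IMP4 by -0.1214 in H128 while the others rose by 0.2615 or more. BECN1 changed by -0.05881 in H209 (others 0.1356 to 0.2807) and IFI35 by 0.09889 in H526 (others -0.1783 to -0.0512).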

How the results depend on the processing

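The cell line block carried the calls: without this replicate block 1 probe was called for A50 against Con and 0 for A50 against A5 and for C+50 against C+0. An ordinary linear model without moderation called 1365, 791 and 1613 probes in these comparisons, and the methods' thresholds (unadjusted p under 0.01 and a fold of at least 1.5) 9 for A50 against Con. Median scaling called 1564 for A50 against Con (53 higher and 1511 lower) and 1763 for C+50 against C+0 (994 and 769), for A50 against A5 it called 104 higher and 1669 lower, and neqc called 1366 for A50 against A5. Scaling to the detected probes gave 1455 higher and 953 lower for A50 against A5. D against H lines gave 4 calls with all 63 arrays and 3 with scaling to the detected probes. The detected probes per array differed by -539.7 at a detection p under 0.01. With 1 line left out the calls ranged from 2292 to 2687 for A50 against Con, from 1751 to 2158 for A50 against A5, from 2670 to 3134 for C+50 against C+0 and from 0 to 4 for D against H lines, and the difference in detected probes from -516.9 to -159.2. Of the 155 called probes named by rule, 81 kept their call under median scaling, 72 lost it and 2 turned, INSIG2 (-0.001143) and SLC30A9 (-0.0001669), neqc kept 117, and the fits without 1 line kept 1218 calls and lost 177, which belong to 39 probes. Why the calls moved was not tested. Changes of dim probes were compressed.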

Other observations

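Small nuclear RNAs of the spliceosome, looked at after their values were seen, were called higher in 4 of 14 measured genes, against 6.23% of all genes, RNU6-1 (0.19), RNU4-2 (0.19), RNU1-3 (0.15) and RNVU1-7 (0.15). They come from multi-copy families and their probes may share signal, and none of the 4 passed the test under median scaling. With 1 line left out, RNU1-3 lost the call in 7 of the 9 fits, RNU4-2 in 6 and RNVU1-7 in 5. RNU4-2 was at 0.21 for A5 against Con and at -0.03 for A50 against A5.

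Calls were also counted by gene length. Among genes with a mean log2 signal of at least 8, split into 5 bins by gene length, 8.73%, 12.5%, 13.8%, 14.3% and 14.8% were lower from the shortest to the longest, and 10.4%, 14.3%, 12.5%, 9.68% and 5.92% were higher. Each bin held 1064 or 1065 genes, the shortest up to 8.367 kb and the longest from 73.49 kb. The mean signal fell from 9.80 to 8.98 across the same bins, and its part in the pattern was not tested. Over all genes the shares lower were 4.92%, 7.27%, 8.23%, 9.48% and 8.01%, so that the longest bin was below the one before it.

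Calls were few among dim genes. Over 5 bins of mean signal, 0.147% of genes in the dimmest bin were higher and 0.734% lower, in the second brightest 12.2% and 13%, and in the brightest 8.92% and 12.4%.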
